A study of Mus musculus with 2 samples.

Results

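Imprinted genes are transcribed mainly from the copy inherited from 1 parent, because DNA methylation set in the egg or the sperm marks the parental copies differently. Several of them act on growth before birth, among them the fetal growth factor gene Igf2 and the noncoding RNA gene H19 beside it, and many of those fall silent in most tissues after birth. The genes described here are 10 imprinted genes with roles in growth control, listed by name: H19, Dlk1, Meg3, Peg3, Mest, Grb10, Plagl1, Ndn, Sgce and Peg10. Their members on the array were all probe sets annotated to exactly 1 gene, that gene being on the list. There were 36 such probe sets for 9 of the 10 genes, out of 34945 probe sets for 18193 genes in all. H19 had no probe set of its own, because the only probe set that names it is annotated to the microRNA gene Mir675 as well, and it is given no value.

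The labels give the cells of both groups as bEnd3, a line of mouse brain microvessel endothelium (strain BALB/c) transformed by polyoma middle T antigen. They carried a retrovirus encoding an siRNA against Smad4, the shared partner of the Smads that receptors of TGF-β and BMP activate, or a control siRNA. All cells of both groups also went through puromycin selection. Each group was 1 Affymetrix array, with RNA of 2 infections pooled before hybridisation. With 1 array per group there is no replicate check, no test was made, and counts of differences describe these arrays alone.

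Values are MAS5 signals after quantile normalization, in arbitrary units. The median signal of an array, 22.8, served as a floor below which a probe set was not counted as measured. A difference is given as log2 of the signal on the array labelled Smad4-siRNA over that on the Control-siRNA array. Where only 1 side reached the floor, a lower bound is given, the brighter signal over the floor. Among probe sets of the same gene that reached the floor on both arrays, log2 ratios had a pooled SD of 0.47 over 4546 genes. That SD describes differences between probe sets of a gene, whatever their source, and holds no spread between cultures. It does not cover genes measured on 1 array alone. The scaling itself moved the median log2 ratio of genes measured on both arrays from -0.33 in the deposited values to -0.15.

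The labels were checked on the targeted gene and on cell markers. Smad4 was not lower where its siRNA was labelled: the brightest of its 3 probe sets had signals of 1165 and, on the control, 916 (log2 ratio 0.35, or -0.07 as deposited). Directions are therefore those of the labelled array and are not taken as a response to loss of Smad4. Of 18 endothelial markers, 17 were measured in the control and 8 in the other sample, where Pecam1, Cldn5, Emcn and Esam, among the defining markers, were below it. The summed signal of these markers was 869 there against 22320 on the control. Fibroblast markers ran the other way, with 9 of 12 measured and a sum of 21260 on the array labelled Smad4-siRNA, against 2 of 12 and 991 for the control. For 10 pericyte and smooth muscle markers the sums were 3257 and 646, and they went both ways: 5 of the 7 measured were at least 2-fold higher, while Mcam, which endothelium also expresses, had 35.5 against 551 and so made up most of the control sum, and Des had 13.7 against 36.2. The X-inactivation RNA Xist had signals of 4476 and 20.7, and the Y-linked Eif2s3y of 0.349 and 324 (named after their values were seen), so the samples also differed in transcripts that mark the sex of cells. Whether both arrays hold RNA of 1 cell line, as labelled, was not tested. No marker was at 0 on either array. What part these differences have in the results that follow was not tested, and in pooled RNA a smaller number of cells of a type and less RNA per cell cannot be told apart.

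The imprint of such genes is carried by CpG sites. The stretches before the start sites are shown first, as a description, for the members at least 2-fold different that the RefSeq table holds. They were not chosen as imprint control regions, and whether any of their CpG sites carries an imprint was not examined. Dlk1, Meg3 and Ndn were measured on 1 array alone, the one labelled Smad4-siRNA, whereas Mest, Grb10 and Plagl1 were lower there. Each run gives the 250 bases before a RefSeq start site (GRCm38.p6), 5′ to 3′ on the gene's strand, with CpG sites in capitals. DNA methylation was not measured.
Ndn, chr7:62348027-62348276, plus strand: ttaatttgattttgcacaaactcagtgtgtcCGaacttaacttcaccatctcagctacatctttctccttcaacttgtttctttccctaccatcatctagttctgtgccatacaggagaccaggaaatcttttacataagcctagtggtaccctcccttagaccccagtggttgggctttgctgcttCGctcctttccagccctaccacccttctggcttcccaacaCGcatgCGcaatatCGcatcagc
Dlk1, chr12:109452573-109452822, plus strand: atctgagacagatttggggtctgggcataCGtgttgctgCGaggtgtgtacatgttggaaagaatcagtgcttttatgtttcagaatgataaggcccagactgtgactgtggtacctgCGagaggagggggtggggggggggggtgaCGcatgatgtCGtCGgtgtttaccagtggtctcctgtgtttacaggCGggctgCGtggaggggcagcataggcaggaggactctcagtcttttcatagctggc
Meg3, chr12:109540746-109540995, plus strand, the first of its start sites in the table: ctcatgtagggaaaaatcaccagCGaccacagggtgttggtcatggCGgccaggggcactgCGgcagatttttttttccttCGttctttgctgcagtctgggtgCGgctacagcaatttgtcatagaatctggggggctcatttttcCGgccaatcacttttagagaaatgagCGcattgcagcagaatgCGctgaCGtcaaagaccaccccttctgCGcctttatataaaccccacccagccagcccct
Mest, chr6:30733256-30733505, plus strand, the first of its start sites in the table: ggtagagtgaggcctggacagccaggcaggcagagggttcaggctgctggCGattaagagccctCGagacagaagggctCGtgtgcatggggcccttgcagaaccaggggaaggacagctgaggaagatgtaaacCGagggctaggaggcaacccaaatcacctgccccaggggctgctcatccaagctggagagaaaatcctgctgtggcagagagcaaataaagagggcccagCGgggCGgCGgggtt
Grb10, chr11:12037421-12037670, minus strand, the first of its start sites in the table: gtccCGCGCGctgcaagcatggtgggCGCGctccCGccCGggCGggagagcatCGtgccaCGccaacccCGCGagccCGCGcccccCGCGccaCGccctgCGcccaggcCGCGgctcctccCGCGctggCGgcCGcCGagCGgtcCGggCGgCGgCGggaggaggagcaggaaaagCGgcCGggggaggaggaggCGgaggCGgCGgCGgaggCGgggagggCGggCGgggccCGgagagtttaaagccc
Plagl1, chr10:13090582-13090831, plus strand: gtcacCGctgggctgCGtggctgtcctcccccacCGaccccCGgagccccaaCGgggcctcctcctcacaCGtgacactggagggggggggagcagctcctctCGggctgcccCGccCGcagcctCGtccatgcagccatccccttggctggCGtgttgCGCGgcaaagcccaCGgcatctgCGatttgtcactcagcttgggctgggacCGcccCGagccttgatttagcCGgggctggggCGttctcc

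These stretches differ in their density of CpG sites. The Ndn stretch holds 5 CpG sites, Mest 7, Dlk1 8, Meg3 10, Plagl1 19 and Grb10 40. The counts depend on the start site: the second start of Grb10 has 8, as Dlk1 does, the second of Meg3 has 0, and the other 2 of Mest have 14 each. Those 2 Mest stretches overlap almost wholly, so their CpG sites, and the GC box given below, are the same ones. The median over 32851 stretches of this length in the RefSeq table is 6, with quartiles at 2 and 16, and 1.31% of them hold as many as Grb10. RefSeq sequence was matched for 7 of the 10 genes, at 11 start sites. Peg3 has 8 CpG sites before its start. The GC box GGGCGG, searched on both strands with overlapping matches counted and itself holding a CpG, occurs 5 times before the first start of Grb10, 2 times before Plagl1 and 1 time before each start of Mest. It is not found before the second start of Grb10 or before Ndn, Dlk1, Meg3 and Peg3, and 32.7% of all stretches hold it. The TATA box letters TATAAA occur in the Meg3 stretch 2 times, as overlapping matches on the opposite strands of 1 place near its end, and in 12.4% of all stretches. The palindrome GTCTAGAC, a Smad binding sequence, is in none of the 11 member stretches and in 0.167% of all. A match or its absence is a description of these letters only.

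The members did not move in a common direction. Taking the brightest probe set of each gene, 8 of the 9 genes with a probe set reached the floor on at least 1 array. Of these, 4 were at least 2-fold higher on the array labelled Smad4-siRNA (Ndn, Meg3, Dlk1 and Sgce), 3 were at least 2-fold lower (Mest, Plagl1 and Grb10), and Peg3 lay between. Over the 11581 measured genes of the whole table, 16.0% were higher by 2-fold or more and 15.8% lower by as much. Because Ndn, Meg3 and Dlk1 were counted only through the array on which they are bright, the members' counts are a description and support nothing. Over the 8 genes the median log2 ratio was 0.34 (signals under the floor raised to it), which falls in the gap between the higher and the lower members, and over all measured genes it was -0.11. By probe set, 25 of the 36 reached the floor somewhere, all 25 on the array labelled Smad4-siRNA but 9 on the control. Of the 25, 12 were higher and 6 lower by 2-fold or more, beside 14.3% and 15.8% of the 21704 probe sets measured in the whole table.

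**Figure D1:**
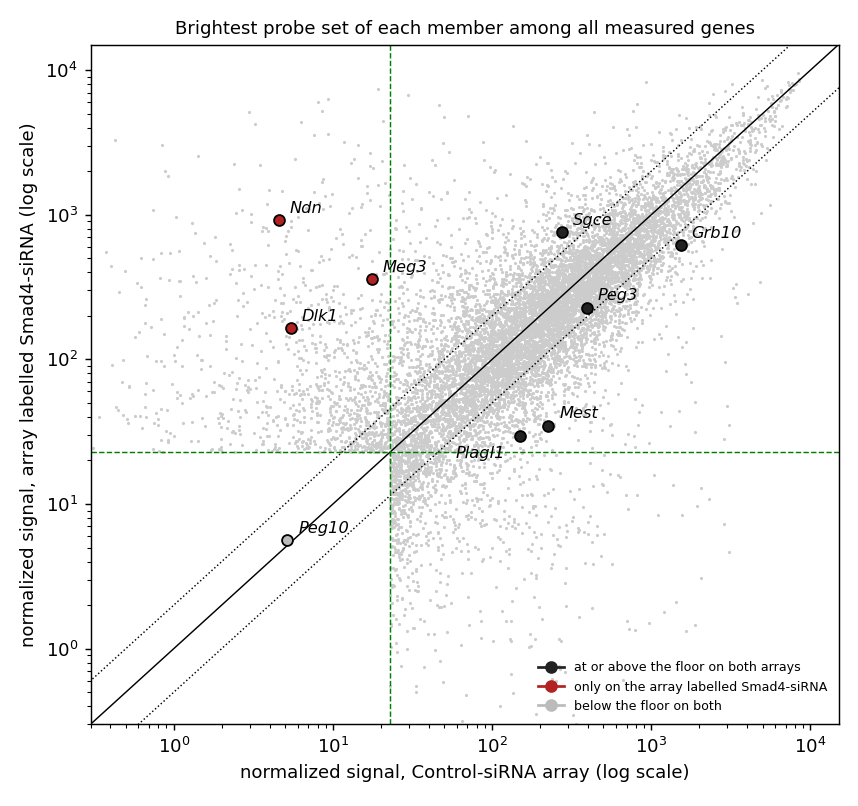
Normalized signal on the array labelled Smad4-siRNA (vertical, log scale) against the Control-siRNA array (horizontal, log scale) for every gene at or above the floor on at least 1 array (grey points) and for the 9 members (large named points), each by its brightest probe set, with the floor of 22.8 as dashed green lines, equal signal as a solid line and 2-fold as dotted lines; genes of the lowest signals fall outside the axes. Ndn, Meg3 and Dlk1 lie left of the control floor, Mest, Plagl1 and Grb10 below the lower dotted line, and Peg10 below the floor on both axes.

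Necdin, the product of Ndn, is a MAGE family protein that binds E2F1 and p53 and restrains cell division, and its gene is expressed from the paternal copy. Its brightest probe set gave 918 units on the array labelled Smad4-siRNA, against 4.59 for the control, so that Ndn was at least 40.3-fold higher. The gene had 8 probe sets, and 5 of them were measured, each only on that array. Those 5 had signals of 918, 813, 703, 622 and 499 there and of 4.59, 0.794, 1.14, 0.0922 and 3.001 on the control, in the same order. Their bounds ran from 21.9-fold to 40.3-fold. Because each was counted only through the array on which it is bright, their common direction follows from the floor and supports nothing. Those with 813, 622 and 499 units have a suffix that marks sequence shared with other transcripts. The remaining 3 were below the floor on both arrays, with no signal above 8.10. Among them, the probe set with 1.06 units on the array labelled Smad4-siRNA had 4.83 on the control.

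Dlk1 and Meg3 are neighbours on chromosome 12 and are expressed from opposite parental copies. Dlk1, paternally expressed, encodes a membrane protein with EGF-like repeats that is shed from the cell and holds back the maturation of fat cell precursors. Its brighter probe set gave 164 units on the array labelled Smad4-siRNA, against 5.43 for the control, at least 7.22-fold higher. The other had 14.3 and 5.15, below the floor on both, so the difference rests on 1 probe set, whose suffix marks sequence shared with other transcripts. With the floor at the 75th percentile its bound was 0.37 on the log2 scale, under the 2-fold threshold. Meg3, maternally expressed, gives a long noncoding RNA linked to p53 activity. The brightest of its 11 probe sets by mean had signals of 357 and 17.6, at least 15.7-fold higher on the array labelled Smad4-siRNA. The suffix of that probe set too marks sequence shared with other transcripts. With the median over probe sets the bound of Meg3 was 0.78 on the log2 scale, under the 2-fold threshold. Both genes thus reached the floor on the same array only, although they are read from opposite parental copies.

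The probe sets of Meg3 differed widely in signal. The highest of the 11 control signals was 17.6. The floor was passed by 9 of the 11, each only on the array labelled Smad4-siRNA, so the common direction of their bounds was fixed by the floor. The probe set brightest on that array gave 500.0 against 4.29, at least 22.0-fold higher. A further 3, each with a suffix that marks shared sequence, had signals of 274, 134 and 54.9 against 1.51, 2.88 and 13.5. Their bounds were 12.03-fold, 5.89-fold and 2.41-fold. The others of the 9 had signals of 39.1, 37.9, 30.9 and 23.1 and bounds under 2-fold, from 1.01-fold to 1.71-fold, because they lie close to the floor. The 2 that reached it on neither array had 20.2 and 20.1 against 13.2 and 10.5. Which parts of the transcript each probe set reads was not examined.

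Sgce encodes ε-sarcoglycan, a membrane protein of the dystrophin-associated complex, and is expressed from the paternal copy. It was the only member both measured on each array and higher on the array labelled Smad4-siRNA. Its brighter probe set had signals of 756 and 274, a log2 ratio of 1.46 (2.76-fold), or 1.13 as deposited. The dimmer had 32.1 and 14.4, at least 1.41-fold higher. With the median over its probe sets the log2 ratio was 0.98, and without probe sets whose suffix marks sequence shared by several transcripts it was at least 0.49. Both rest on a bound, and neither reaches the 2-fold threshold. Peg10, which starts head to head with Sgce and derives from a retrotransposon gag-pol gene, had 1 probe set with signals of 5.59 and 5.18, below the floor on both arrays. It therefore has no fold.

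Mest and Plagl1 differed most among the members that were lower. Mest, paternally expressed, encodes a hydrolase-like protein of mesoderm and of expanding fat tissue. Its single probe set gave 34.8 units on the array labelled Smad4-siRNA, against 226 for the control, a log2 ratio of -2.70 (6.49-fold lower). Plagl1, also called Zac1, is a paternally expressed zinc finger factor that can arrest the cell cycle and is known to activate other imprinted genes. Its only measured probe set had 29.4 and 150, a log2 ratio of -2.36 (5.12-fold lower). The other 2 Plagl1 probe sets lay below the floor on both arrays, at 10.3 and 12.3 and at 1.58 and 1.71, so the difference rests on 1 probe set, and its suffix marks sequence shared with other transcripts. Both genes were only a little above the floor where the label reads Smad4-siRNA, and with the floor at the 75th percentile their log2 ratios became bounds of -0.83 and -0.24.

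Grb10 and Peg3 were lower by smaller amounts and were measured on both arrays by several probe sets. Grb10 encodes an adaptor that binds the insulin and IGF1 receptors and dampens their signal, and is maternally expressed outside the brain. Its 3 probe sets had signals of 618, 57.3 and 41.7 on the array labelled Smad4-siRNA, against 1532, 123 and 67.2 for the control. The log2 ratios were -1.31, -1.10 and -0.69, with a mean of -1.03 ± 0.32 (SD over 3 probe sets). All were below 0, and the dimmest was within 2-fold. Peg3, paternally expressed, encodes a large zinc finger protein with roles in growth and maternal behaviour. The 3 Peg3 probe sets at the floor had signals of 228, 87.0 and 25.2 against 392.3, 176 and 91.4. Their log2 ratios were -0.78, -1.02 and -1.86, with a mean of -1.22 ± 0.57 (SD over 3 probe sets), and the other 2 were below the floor on both arrays. By its brightest probe set Peg3 was within 2-fold, but in the deposited values that probe set had a log2 ratio of -1.09, past 2-fold.

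**Figure D2:**
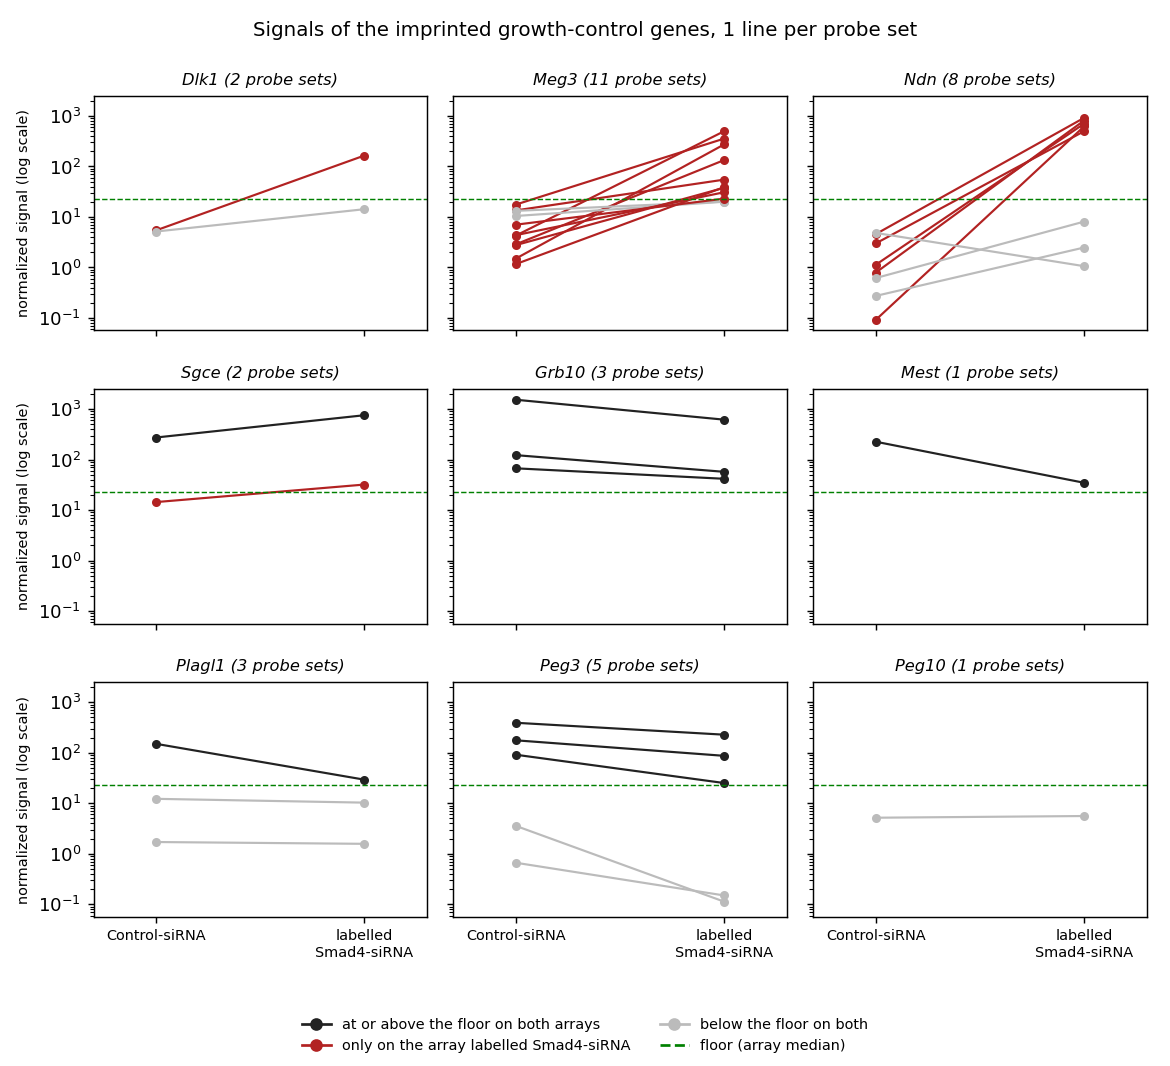
Normalized signal (vertical, log scale) of each of the 36 member probe sets on the Control-siRNA array (left) and the array labelled Smad4-siRNA (right), 1 line per probe set and 1 panel per gene, with the floor of 22.8 as a dashed line. All 9 measured Meg3 lines and all 5 measured Ndn lines cross the floor upwards, all 3 Grb10 lines fall, and the 3 Peg3 lines that stay above the floor fall.

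Neighbouring genes in and around the same imprinted regions were set beside the members, since imprinted genes of a region often share a control element. The neighbours also include flanking genes that are not on the list of other imprinted genes described below. Whether any neighbour shares a control element with a member was not tested. The list held 42 neighbours, of which 37 had a probe set (Zfp264, with none, is not plotted) and 20 were measured on at least 1 array. Of the 20, 5 were higher and 6 lower by 2-fold or more and 9 between, with a median log2 ratio of -0.21, beside 16.0% and 15.8% of all genes. Only 1 array carried the measurement for 6 of them, for 5 the one labelled Smad4-siRNA and for 1 the control. In the Dlk1-Meg3 region the noncoding RNAs Rian and Mirg, which like Meg3 come from the maternal copy, were likewise measured on that 1 array alone, labelled Smad4-siRNA. Rian had signals of 48.2 and 15.6 (at least 2.11-fold higher) and Mirg of 24.4 and 6.02 (a bound of 1.07-fold). Wdr25, at the edge of that region, had a log2 ratio of -0.55. Dlk1, Meg3, Rian and Mirg were thus all measured on the same array and not on the control. Because each was counted only through the array on which it is bright, the common sign of their bounds follows from the floor and supports nothing.

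Around H19 on chromosome 7, Igf2, read from the paternal copy, gave 284 units against 90.1, 3.15-fold higher. Lsp1, a leukocyte and endothelial cytoskeletal protein gene farther off, was at least 5.15-fold higher, and the mitochondrial ribosomal gene Mrpl23 had a log2 ratio of -0.34. In the Ndn region of chromosome 7, Snrpn, Magel2 and Peg12 were below the floor on both arrays. Mkrn3 was measured on the same array as Ndn and not on the control, close to the floor (26.3 and 13.4, a bound of 1.16-fold), and the ubiquitin ligase gene Ube3a had a log2 ratio of -0.09, with both signs among its 6 probe sets. Of the genes beside Peg3, neither Zim1 nor Usp29 reached the floor.

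The Sgce-Peg10 region on chromosome 6 went both ways. The actin-binding Ppp1r9a was at least 3.96-fold higher (signals of 90.3 and 19.02) and the paraoxonase Pon3 2.16-fold higher (239 and 111). Casd1, adjoining Sgce on its other side, was 2.04-fold lower (291 and 593), Pon2 2.21-fold lower (188 and 415) and Asb4 at least 2.48-fold lower (6.42 and 56.4). As deposited, Pon3 had a log2 ratio of 0.96, within 2-fold. Beside Mest, Copg2 had a log2 ratio of -0.03 and Cep41 of -0.91, so by brightest probe set no measured neighbour there was 2-fold different. The 3 measured Cep41 probe sets ran from -1.11 to -0.27, so not all were within 2-fold. Beside Grb10, Cobl was 2.27-fold lower and Fignl1 had a log2 ratio of -0.03.

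The Plagl1 region on chromosome 10 had log2 ratios below 0 for all 4 genes, on the quantile-normalized scale. Ltv1, a ribosome assembly factor, had signals of 139 and 561 (log2 ratio -2.01), Phactr2 of 25.7 and 83.9 (-1.71) and the splicing factor gene Sf3b5 of 815 and 1209 (-0.57). Plagl1 itself had -2.36. Of these, Sf3b5 stayed within 2-fold. Ltv1, Phactr2 and Sf3b5 are flanking genes that are not on the list of other imprinted genes described below.

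**Figure D3:**
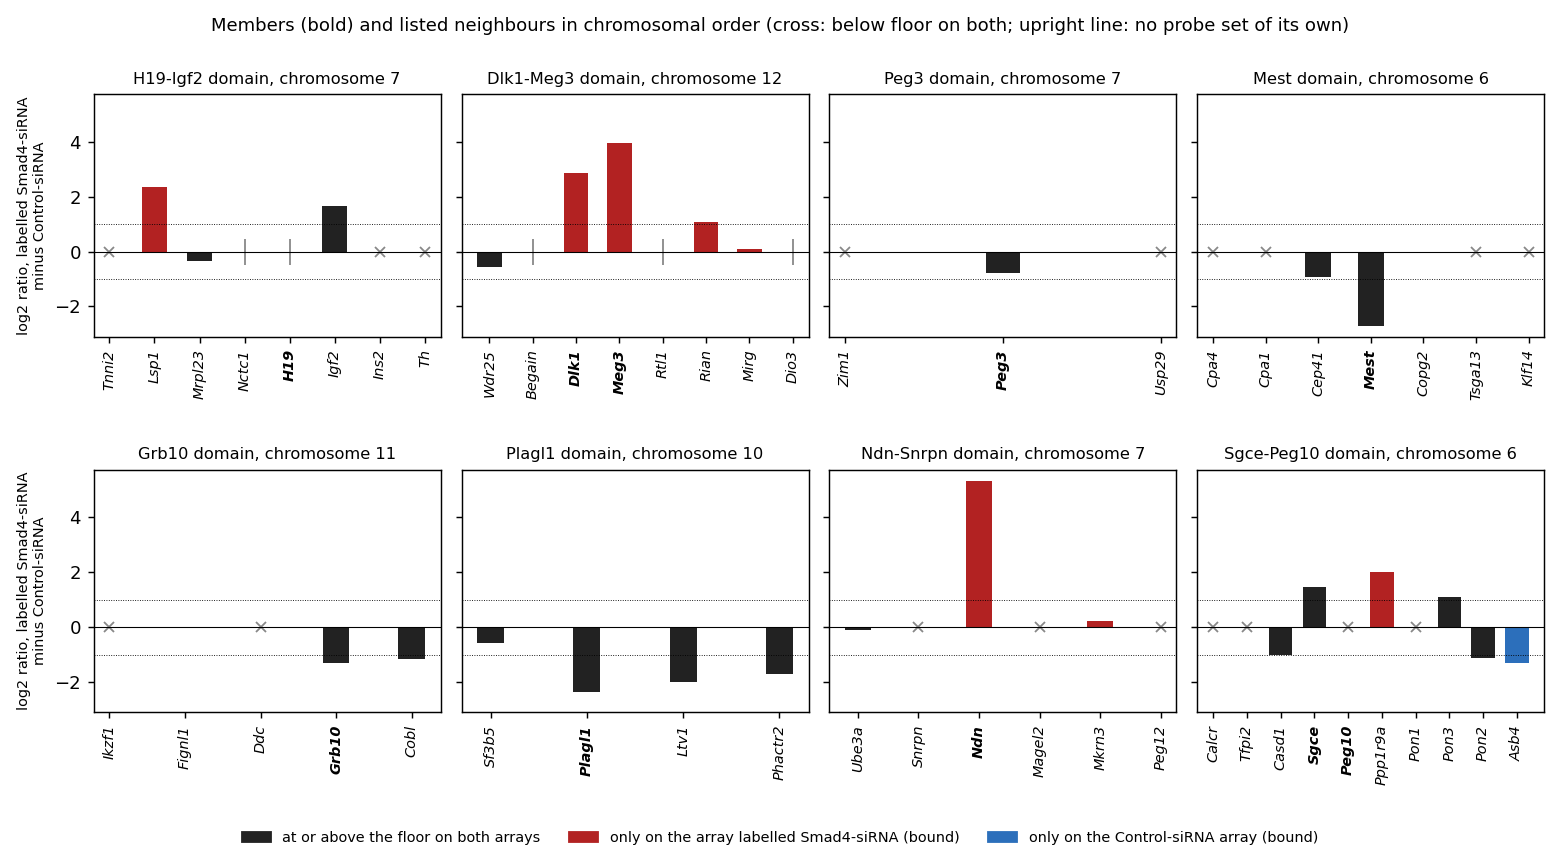
Log2 ratio of the array labelled Smad4-siRNA over the Control-siRNA array (vertical) for the members (bold) and listed neighbours of 8 imprinted regions, in chromosomal order and not to distance. Black bars are genes at the floor on both arrays, red and blue bars are bounds, crosses are genes below the floor on both and upright lines genes with no probe set of their own; dotted lines mark 2-fold, and the bars of Copg2 and Fignl1 (-0.03 each) are too small to see. Dlk1, Meg3, Rian and Mirg are all above 0, as bounds whose sign follows from the floor. The 4 genes of the Plagl1 region are all below 0, and the Sgce-Peg10 region holds both.

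Other genes reported as imprinted in some mouse tissue went both ways. Of 58 on the list, 51 had a probe set and 32 were measured on at least 1 array. Of the 32, 12 were higher and 5 lower by 2-fold or more, with 15 between, beside the 16.0% and 15.8% of all genes. As for the members, 10 of the 32 were counted only through the array labelled Smad4-siRNA, and the list shares genes with the neighbours. Their median log2 ratio was 0.47, or 0.25 with signals under the floor raised to it, against -0.14 and -0.11 for all genes. The counts depended on the settings: with the floor at the 75th percentile 3 were higher and 2 lower, with the median over probe sets 7 and 3, and with centring 3 were lower.

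The most different gene on that list was Dcn, for the matrix proteoglycan decorin, which is also a fibroblast marker. It had signals of 1861 and 0.921, at least 81.7-fold higher on the array labelled Smad4-siRNA. Igf2r, which clears IGF2 from the cell surface and is maternally expressed in mice, was 6.34-fold higher (593 and 93.5). Airn, the paternal noncoding RNA that overlaps Igf2r and silences it in cis, was at least 4.21-fold higher (95.9 and 16.7), with all 4 measured probe sets above 0. Kcnq1ot1, the paternal noncoding RNA of another region, was at least 9.07-fold higher (207 and 12.1), although 1 of its 5 measured probe sets went the other way. The potassium channel gene Kcnq1, which that RNA overlaps, was at least 8.24-fold lower (3.06 and 188). For these overlapping pairs, which transcript each probe set reads was not examined.

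**Figure D4:**
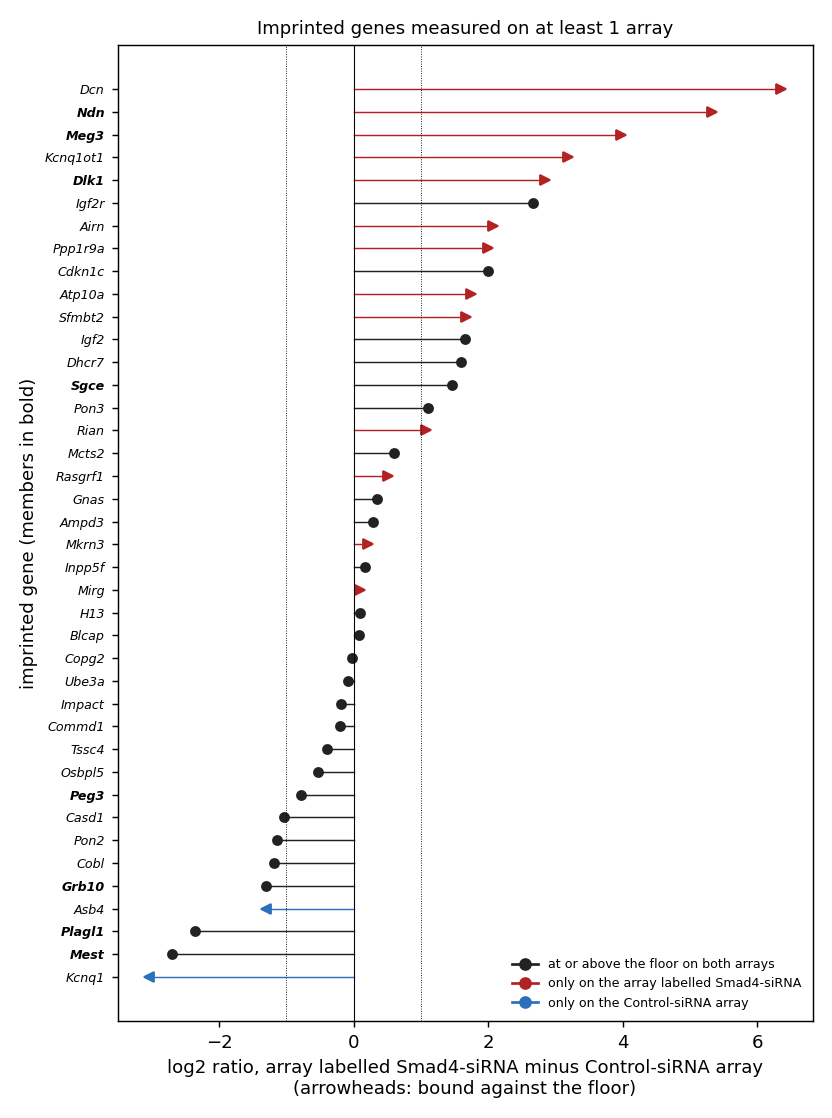
Log2 ratio of the array labelled Smad4-siRNA over the Control-siRNA array (horizontal) for the 8 members (bold) and 32 other imprinted genes measured on at least 1 array, ordered by the ratio. Circles are genes at the floor on both arrays and arrowheads are bounds; dotted lines mark 2-fold. Ndn, Meg3 and Dlk1 lie near the upper end beside Dcn and Kcnq1ot1, and Mest and Plagl1 near the lower end beside Kcnq1.

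Genes that write or read the imprint differed about as often as genes in general. Of 20 measured genes for DNA methylation, imprint protection and Polycomb silencing, 4 were higher and 2 lower by 2-fold or more, with 14 between, and a median of -0.11, beside 16.0% and 15.8% of all genes and their median of -0.11. The de novo methyltransferase Dnmt3a was 4.24-fold higher (203 and 47.9), the 5-methylcytosine oxidase Tet2 3.16-fold (301 and 95.1) and the Polycomb methyltransferase Ezh2 2.05-fold (504 and 247, or a log2 ratio of 0.73 as deposited). Arid4a and the NuRD subunit Mbd3 were 2.64-fold (73.5 and 194) and 2.52-fold lower (102 and 256). The 3 Arid4a probe sets differed in sign. For Dnmt3a and Tet2 the fold given is the largest among their probe sets. The 5 Dnmt3a probe sets had log2 ratios from 0.29 to 2.09 and the 2 of Tet2 from 0.9 to 1.66, any bounds included.

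Partners of Grb10 in insulin and IGF signalling were higher or within 2-fold, with 7 of 16 measured genes at least 2-fold higher, 0 lower and a median log2 ratio of 0.52, beside 16.0% and 15.8% of all genes. For 3 of the 16 (Irs1, Irs2 and Grb14) only the array on which they are bright carried the measurement. Irs1, a docking protein of both receptors, was at least 23.1-fold higher (526 and 13.1). Grb14, the relative of Grb10, had signals of 294 and 0.451 and was at least 12.9-fold higher, while Grb10 was lower. The IGF1 receptor gene Igf1r was 9.27-fold higher (973 and 105), Irs2 at least 3.02-fold (68.9 and 2.51) and Pik3r1 2.93-fold (345 and 118). For Igf1r and Pik3r1 that is the largest fold among their probe sets. The 4 measured Igf1r probe sets had log2 ratios from 0.91 to 3.21 and the 4 of Pik3r1 from 0.11 to 1.55, any bounds included.

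Genes around Dlk1 in Notch signalling and fat cell precursors were mostly higher, with 8 of 12 measured at least 2-fold higher, 1 lower and a median log2 ratio of 1.46 with bounds, beside 16.0% and 15.8% of all genes. For 4 of the 12 (Notch3, Sox9, Cebpa and Lpl) the measurement came only from the array on which they are bright. Cebpd, an early factor of fat cell differentiation, was 11.9-fold higher (2254 and 190), Sox9, which Dlk1 is known to sustain in precursors, at least 6.00-fold (137 and 6.11), Notch3 at least 9.20-fold (209 and 3.61) and Notch2 4.09-fold (617 and 151). Notch1 was 4.45-fold lower (126 and 562). Notch3 is also on the pericyte marker list.

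The remaining lists held few measured genes. Among 7 genes of the sarcoglycan and dystrophin complex, 2 were at least 2-fold higher and 0 lower, beside 16.0% and 15.8% of all genes. Their median log2 ratio was 0.32 with bounds. For 2 of the 7 (Sspn and Sgcd) only the array labelled Smad4-siRNA carried the measurement. Sarcospan (Sspn) was at least 8.23-fold (188 and 7.003) and dystroglycan (Dag1) 4.41-fold higher (1073 and 243), while Dtnb, Utrn and Sntb2 had log2 ratios of 0.88, -0.63 and 0.32. The median was -0.13 over 6 measured partners of necdin and Peg3. Of these, the MAGE genes Maged2 and Maged1 were 8.04-fold (801 and 99.6) and 2.72-fold higher (1697 and 625). Becn1, Traf2 and Siah1a had log2 ratios of -0.62, -0.37 and -0.34. The 5 Becn1 probe sets differed in sign, from -0.83 to 0.54 with any bounds included. As deposited, the brightest Becn1 probe set had -1.01, past 2-fold. None of the 6 gag-derived relatives of Peg10 with a probe set reached the floor on either array.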

How the data were processed

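Total RNA was labelled with biotin and hybridised to 1 Affymetrix array per group. The authors deposited 1 linear intensity per probe set and used MAS5, per the submitters' processing notes. Its release and settings were not given in the sources used here. Of 45101 probe sets, 64 controls were left out. In the platform annotation, which can be old, 34945 had 1 gene, 932 several and 9160 none. Symbols were updated by Entrez identifier against RefSeq (GRCm38.p6), which matched 18032 of 18193 genes and gave neighbour order and promoter sequence.

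Log2 intensities were quantile normalized (Python 3.11.15, pandas 2.3.3). Each gene took the value of the probe set with the highest mean log2 signal, and a difference counted from 2-fold. The comparison was also run on simulated data, with changes put only into genes far above the floor on the control. It does not cover genes near the floor or measured on 1 array alone, as several members were. Genes named were the members, Smad4, the listed neighbours measured on at least 1 array (with some that were not) and the 5 largest differences of each list that is not a marker list; other genes were named after their values were seen. The members and lists were chosen with earlier results of these data known. Alternatives were the deposited scale, centring, a lowess trend (fraction 0.3), floors at the 25th or 75th percentile, a pseudocount at the 25th percentile, the median over probe sets, and no suffixed probe sets.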

Additional observations from a re-analysis of the deposited data

How the results depend on the processing

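Every measured member kept its direction under all alternatives that measured it. For Ndn, Meg3 and Dlk1, with control signals under the main floor, that direction follows largely from the rule for bounds. All alternatives rework the same 2 arrays, so a kept direction is no support for a difference. The ranges of log2 ratios were 2.85 to 7.36 for Ndn, 0.78 to 4.46 for Meg3, 0.37 to 4.88 for Dlk1, 0.49 to 1.56 for Sgce, -2.71 to -0.83 for Mest, -2.36 to -0.24 for Plagl1, -1.68 to -1.10 for Grb10 and -1.09 to -0.69 for Peg3. The number at least 2-fold higher, 4, was 2 with the median over probe sets (7 members measured) and 2 without suffixed probe sets (5 measured), and with the floor at the 75th percentile it was 3, without Dlk1. The number at least 2-fold lower, 3, was 4 as deposited, with Peg3 added, and 2 with the median over probe sets, without Plagl1. It was 1 with the floor at the 75th percentile (Grb10), and also 1 (Mest) when suffixed probe sets were dropped. Without suffixed probe sets, Grb10 has no probe set and the remaining Plagl1 probe set is below the floor. The members' median ran from 0.02 as deposited to 0.78. Of the other imprinted genes, 12 higher became 3 with the floor at the 75th percentile and 7 with the median over probe sets, and 5 lower became 2 and 3 in those settings and 3 with centring. A higher floor measures fewer genes and shortens bounds; the cause of the other changes was not tested. No paired analysis was possible because each group had 1 array. Signal over background and the number of arrays limit every value.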
